A study of Mus musculus with 5 samples.

Results

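The ATP-sensitive potassium channel is described here through 3 genes, chosen by name: Abcc8, Kcnj11 and Abcc9. All 3 were among the 22042 genes of the bulk RNA table and among the 27998 genes of the droplet gene list. The channel is built from pore subunits of the inward rectifier family and regulatory sulfonylurea receptors of the ABCC family. Kcnj11 codes for the pore Kir6.2 and Abcc8 for the receptor SUR1, the pairing known from pancreatic beta cells, whereas Abcc9 codes for SUR2, known from heart and smooth muscle, and Kcnj8 for the related pore Kir6.1. ATP closes the pore and magnesium-bound nucleotides acting on the receptor open it, so that glucose metabolism can depolarise a cell, open voltage-gated calcium channels and release hormone, a route studied in enteroendocrine cells (EECs), the hormone-secreting cells of the gut lining.

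The mice were C57Bl/6J, untreated apart from feeding, and carried the R26-LSL-tdTomato reporter, which stays on in any cell that has once expressed its Cre driver and in the descendants of that cell. For droplet sequencing, tdTomato+ intestinal epithelial cells of 4 Neurog3-Cre mice aged 6 weeks were pooled into 1 library, so that no droplet comparison had replicates. For bulk RNA sequencing, tdTomato+ (CCK+) and tdTomato- (CCK-) epithelial cells were sorted from each of 6 Cck-Cre mice aged 6 to 8 weeks, giving 12 libraries in 4 groups of 3. Mice A, B and F were fasted overnight, and mice C, D and E were fasted and then given Ensure, a liquid meal.

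Bulk values were the authors' normalised counts, which summed to between 7061155 and 11371114 per library, with 16656 to 18855 genes above 0 in a library. Cck itself ran from 14837 to 32592 normalised counts in the CCK+ libraries and from 27.6 to 86.0 in the CCK- libraries, so the sort separated the groups. The 10 general EEC markers were all higher in CCK+ cells, with sums of 66134 to 240120 against 1345 to 2730. For this and the next marker counts, the background is 19.6% of all genes called higher and 14.1% called lower (limma, adjusted p under 0.05). CCK+ libraries also held other cells or their RNA: the enterocyte markers summed to 166987 to 423763, against 459483 to 645394 in CCK- cells. The immune markers, 9 of 10 of them higher in CCK+ cells, summed to 8258 to 14033 against 2975 to 9593. The neuron and glia markers, 3 of 5 of them higher in CCK+ cells, summed to 918 to 3150 against 26.6 to 69.6. Most of that sum was Snap25, a gene of vesicle release, at means of 2170 and 37.2, whereas Tubb3, Uchl1, Elavl4 and S100b each averaged under 10 in both. These markers moved with Abcc8 and Kcnj11, and with the Kcnj and calcium channel genes below, and their part in those results was not tested. Pancreatic RNA stood out in a pair of libraries. CCK+ fasted A held the acinar genes Ctrb1 (3453), Cpa1 (267) and Pnlip (195), and CCK+ refed E held the insulin genes Ins1 (356) and Ins2 (161). Ins1, Ins2 and Cpa1 were listed at 0 in every other library, and Ctrb1 was at most 2.23 there. Since islet cells are a known site of Abcc8 and Kcnj11, results are given below with and without these libraries.

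Abcc8 (ENSMUSG00000040136) and Kcnj11 (ENSMUSG00000096146) are neighbours. In the GRCm38 annotation they lie on the minus strand at chr7:46104523-46180033 and chr7:46093953-46100764, with 3758 bases between them. Abcc9 (ENSMUSG00000030249, chr6:142587862-142702315, minus strand) has the same arrangement with Kcnj8, 16247 bases away. The coding sequences of Abcc8 and Abcc9 shared 67.5% of aligned bases and no identical run longer than 23 bases, and those of Kcnj11 and Kcnj8 shared 69.8% and no run longer than 21 bases. The stretches below are coding sequence from GENCODE transcripts, 5′ to 3′, and are shown because they hold the working parts of the channel and show how close the paired genes are to each other. For the pores, capitals mark the codons of the potassium selectivity filter; Kcnj11 is read from exon 1 of 1 (chr7:46099469-46099537) and Kcnj8 from exon 3 of 3 (chr6:142566421-142566489).
Kcnj11 selectivity filter: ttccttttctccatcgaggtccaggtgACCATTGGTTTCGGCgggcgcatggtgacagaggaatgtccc
Kcnj8 selectivity filter: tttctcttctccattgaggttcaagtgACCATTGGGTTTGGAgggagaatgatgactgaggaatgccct

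For the receptors, capitals mark the codons of the Walker A motif, the loop that holds the phosphates of a bound nucleotide, which occurs once in each nucleotide-binding domain. Each stretch joins a pair of exons. Those of Abcc8 lie in exons 15 and 16 (chr7:46135516-46136168) and exons 33 and 34 (chr7:46107254-46108098) of 39, and those of Abcc9 in exons 17 and 18 (chr6:142652562-142656609) and exons 34 and 35 (chr6:142601792-142603061) of 41.
Abcc8 Walker A 1: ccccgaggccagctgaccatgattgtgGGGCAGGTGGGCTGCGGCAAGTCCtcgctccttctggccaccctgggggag
Abcc9 Walker A 1: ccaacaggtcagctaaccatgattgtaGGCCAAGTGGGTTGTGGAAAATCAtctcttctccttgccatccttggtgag
Abcc8 Walker A 2: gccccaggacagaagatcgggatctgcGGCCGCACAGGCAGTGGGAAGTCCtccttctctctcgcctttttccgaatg
Abcc9 Walker A 2: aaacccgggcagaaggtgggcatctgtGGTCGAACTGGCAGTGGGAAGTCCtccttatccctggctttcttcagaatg

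Transcripts of SUR1 and Kir6.2 were higher in CCK+ than in CCK- cells. Abcc8, the SUR1 receptor, had 525.5, 190.4 and 247.2 normalised counts in the CCK+ libraries of fasted mice A, B and F and 257.9, 403.1 and 204.0 in those of refed mice C, D and E. In the CCK- libraries of the same mice it had 15.2, 6.83 and 1.21 (fasted) and 5.11, 0.706 and 9.41 (refed). The lowest CCK+ library thus stood well above the highest CCK- library. The share of all genes that separate in this way was not counted. Over both feeding states the log2 difference was 5.67 (SE 0.51, 95% interval 4.58 to 6.77, limma, adjusted p = 1.1e-06), or 51.0-fold on the log2(value + 1) scale used for every bulk difference here. Of all genes, 19.6% were called higher and 14.1% lower in this comparison, 33.7% in all, at an adjusted p under 0.05. When libraries were rescaled to equal sums the median log2 difference of all genes moved from 0.09 to 0.346 and the share of calls that were higher from 58.2% to 84.1%, with both members still called.

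Kcnj11, the Kir6.2 pore, had 141.6, 27.8 and 187.1 normalised counts in fasted CCK+ libraries and 90.1, 60.2 and 103.0 in refed ones. It was listed at 0 in all CCK- libraries except that of fasted mouse B, which held 0.619. The log2 difference was 6.34 (SE 0.47, 95% interval 5.33 to 7.34, limma, adjusted p = 1.7e-07), in the comparison that called 19.6% of all genes higher. Because the CCK- values were at or near 0, the size depended on the constant added before taking logs and was 3.28 when 10 was added in place of 1, with the call kept.

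Abcc9, the SUR2 receptor, showed no such enrichment. It had 12.01, 3.66 and 8.65 normalised counts in fasted CCK+ cells, 9.41, 10.3 and 10.0 in refed CCK+ cells, 14.5, 9.76 and 23.5 in fasted CCK- cells and 17.0, 14.0 and 4.49 in refed CCK- cells. All groups overlapped. The mean was 9.02 ± 2.86 (SD, n = 6) in CCK+ and 13.9 ± 6.45 in CCK- libraries, and the log2 difference of -0.50 (SE 0.43, 95% interval -1.41 to 0.42, limma, adjusted p = 0.417) did not pass the test. The mural and smooth muscle markers, from cells in which SUR2 is known, summed to 42.2 to 99.3 in CCK+ and 52.4 to 136 in CCK- libraries, and their part in the Abcc9 level was not tested. Kcnj8, the pore usually paired with SUR2 in those cells, was not analysed here in the bulk table.

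**Figure D1:**
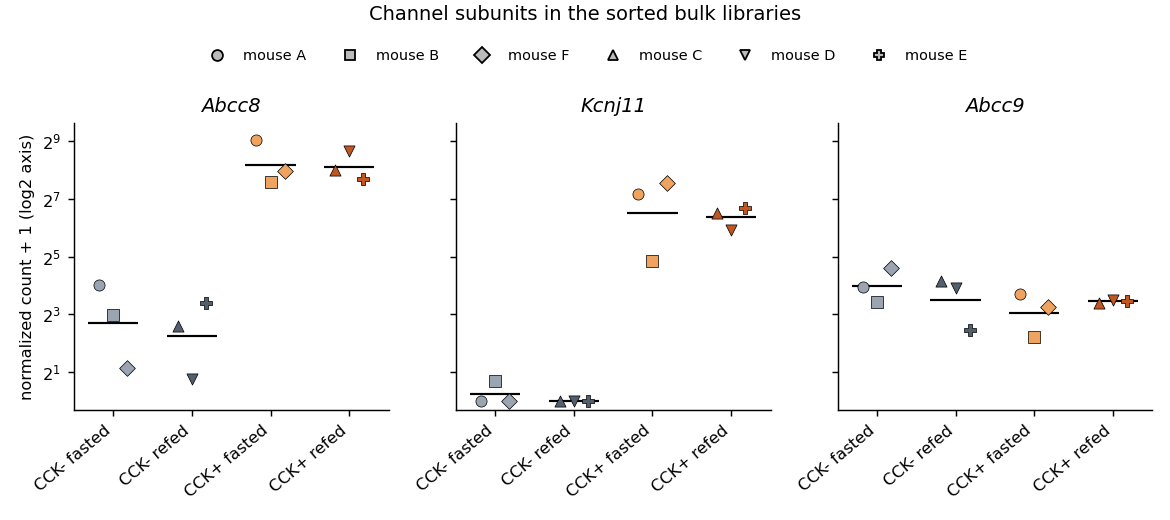
Normalised counts (log axis, value + 1) of Abcc8, Kcnj11 and Abcc9 in each of the 12 bulk libraries, by cell population and feeding state; marker shapes are mice and bars are means of log2(value + 1). Abcc8 and Kcnj11 are higher in every CCK+ library than in any CCK- library, whereas Abcc9 overlaps between all groups. How many of all genes separate like this was not counted.

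The enrichment was present in each feeding state. Among fasted mice, where 18.2% of genes were called, the log2 difference was 5.48 for Abcc8 (limma, adjusted p = 0.000121) and 6.29 for Kcnj11 (adjusted p = 1.8e-05), and it was -0.93 for Abcc9 (adjusted p = 0.341). Among refed mice, where 25.9% of genes were called, it was 5.86 for Abcc8 (adjusted p = 4.4e-05) and -0.06 for Abcc9 (adjusted p = 0.983), and Kcnj11 was called against CCK- libraries that were all listed at 0. Leaving out CCK+ fasted A, with its acinar RNA, gave 5.46 for Abcc8 and 6.18 for Kcnj11, and leaving out CCK+ refed E, with its insulin RNA, gave 5.78 and 6.26. With both left out, an alternative chosen after seeing the data, both genes were still called, among 3613 genes called higher and 2598 called lower.

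In bulk RNA, fewer cells of a type and less RNA per cell cannot be told apart, and the CCK+ libraries held hormones of several EEC types. The D cell markers, led by somatostatin (Sst), summed to 2846 to 8989 in CCK+ libraries and 20.9 to 130 in CCK- libraries. The K cell markers, led by Gip, summed to 11297 to 35659 against 42.7 to 80.6. The N/L markers, with Gcg and Pyy, summed to 22767 to 50280 against 48.7 to 134. The part of each cell type in the Abcc8 and Kcnj11 levels was not tested in these libraries; the droplet cells below give Abcc8 by hormone.

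Levels of different genes were compared per kilobase of a transcript with the longest complete coding sequence of each gene, 4.877 kb for Abcc8, 3.142 kb for Kcnj11 and 6.213 kb for Abcc9. Across the CCK+ libraries Abcc8 ran from 39.0 to 108 normalised counts per kilobase (median 51.8), Kcnj11 from 8.86 to 59.5 (median 30.7) and Abcc9 from 0.589 to 1.93 (median 1.56). The RNA level of Abcc8 was therefore 25.9 to 66.3 times that of Abcc9 in the same library, or 31.3 to 80.04 times with the longest complete Abcc9 transcript of 7.499 kb. These are ratios of RNA, and protein was not measured. The ratio of Abcc8 to Kcnj11 varied more between mice, at 2.39, 4.41 and 0.851 in fasted mice A, B and F and 1.84, 4.31 and 1.28 in refed mice C, D and E. With another annotated Kcnj11 transcript of 0.917 kb, shorter than the full coding sequence of 1173 bases, the same ratio ran from 0.248 to 1.29. The order of Abcc8 and Kcnj11 RNA thus differed between mice and rested on the transcript assumed. In CCK- cells Abcc8 ran from 0.145 to 3.12, Kcnj11 from 0 to 0.197 and Abcc9 from 0.723 to 3.79 per kilobase.

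Refeeding did not move any of the channel genes past the test. In CCK+ cells, where 2.55% of genes were called, Abcc8 averaged 321 ± 179 normalised counts (SD, n = 3) in fasted and 288 ± 103 in refed mice, a log2 difference of -0.07 (95% interval -1.62 to 1.47, limma, adjusted p = 0.993). Kcnj11 averaged 119 ± 82.0 and 84.4 ± 21.9, a difference of -0.14 (95% interval -1.56 to 1.29, adjusted p = 0.958), and Abcc9 averaged 8.1 ± 4.2 and 9.93 ± 0.473, a difference of 0.38 (95% interval -0.91 to 1.68, adjusted p = 0.803). The intervals were wide, and for Abcc8 they still allowed a change of more than 1 log2 unit either way. In CCK- cells, where 1.23% of genes were called, the differences were -0.46 for Abcc8 (95% interval -2.01 to 1.09, adjusted p = 0.899), -0.23 for Kcnj11 and -0.49 for Abcc9 (95% interval -1.78 to 0.80, adjusted p = 0.851). The effect of refeeding did not differ detectably between CCK+ and CCK- cells, with interaction terms of 0.38 for Abcc8 (adjusted p = 0.948), 0.09 for Kcnj11 (adjusted p = 0.99) and 0.87 for Abcc9 (adjusted p = 0.845), in a test that called 0.00454% of genes.

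Set against the EEC marker sum of each library, Abcc8 read differently. That sum is not a count of EECs and differs between EEC types. In the droplet cell groups defined below, the same markers made up 433 of every 10000 RNA molecules read in Tph1-high cells. They made up 156 in Cck-high and 64.9 in Ghrl-high cells. The part of the mix of EEC types in this scale was not tested. Per 1000 normalised counts of the EEC markers, it had 3.54, 2.88 and 2.29 in fasted CCK+ libraries A, B and F and 1.46, 1.68 and 0.937 in refed libraries C, D and E, so every refed library lay below every fasted one. The same ordering held for 50.3% of the 13786 genes with a mean of at least 10 normalised counts in CCK+ libraries. The EEC marker sums were themselves higher in refed CCK+ libraries, at 176904 to 240120 against 66134 to 148633, though none of the 10 markers was called there. Kcnj11 overlapped, at 0.953, 0.421 and 1.73 against 0.509, 0.251 and 0.473. On this scale Abcc8 ran from 0.258 to 7.68 in the CCK- libraries (median 3.72), a range that held all CCK+ values. Those CCK- values rest on only 0.706 to 15.2 normalised counts of Abcc8. Kcnj11 on the same scale had a median of 0.491 in CCK+ libraries and was at 0 in 5 of the 6 CCK- libraries, with 0.330 in the other.

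The genes whose bulk pattern was most like each member were ranked over the 12 libraries among 13516 genes, as a description, since all points share the CCK+ and CCK- division. Abcc8 was closest to Cacna1c, an L-type calcium channel pore (Pearson r = 0.982), Gramd1a (0.982), Fbxl16 (0.981), Camk2n2 (0.979) and Abcc4 (0.979). Kcnj11 was closest to Entpd3 (0.993), Il6ra (0.99), Cbarp (0.987), Plxnb1 (0.987) and the potassium channel Kcnt1 (0.986). The correlation between Abcc8 and Kcnj11 was 0.945, whereas Abcc9 correlated with Abcc8 at -0.431 and with Kcnj11 at -0.313. Abcc9 was closest to Gm7720 (0.904) and Ppp6c (0.9002).

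Among the 9451 droplet cells with more than 1000 genes and under 10% mitochondrial UMIs (unique molecular identifiers, each counting 1 captured RNA molecule), Abcc8 was read 776 times, in 633 cells. Cells were assigned by hormone UMIs per 10000, in the order Cck at 500 or more, Tph1 (the enzyme of serotonin synthesis in enterochromaffin cells) at 10 or more, then Gip, Ghrl or Sst at 500 or more, and the rest. Abcc8 was highest in the 35 Sst-high cells, at 1.73 UMIs per 10000 (33 UMIs, exact Poisson 95% interval 1.19 to 2.43), followed by the 135 Gip-high cells at 0.889 (84 UMIs, 0.709 to 1.10) and the 1246 Cck-high cells at 0.494 (407 UMIs, 0.448 to 0.545). The 151 Ghrl-high cells had 0.356 (40 UMIs, 0.254 to 0.485), and their interval overlapped that of the Cck-high cells. The 2492 Tph1-high cells had 0.0625 (60 UMIs, 0.0477 to 0.0805) and the 5392 remaining cells 0.033 (152 UMIs). The Sst-high and Gip-high levels depended on the order of assignment. Without that order, all 60 cells over the Sst limit had 1.39 UMIs per 10000 (1.03 to 1.85). All 197 cells over the Gip limit had 0.937, and the intervals of these sets, which can share cells, overlapped. All intervals here cover counting error only, and with 1 library no difference between groups was tested.

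Both of the low groups lay below free RNA, which was read from 410487 barcodes of 1 to 100 UMIs and held Abcc8 at 0.134 UMIs per 10000 (27 UMIs, 0.089 to 0.196). How much of their Abcc8 came from free RNA was not tested. Depth differed too, with a median of 3225.5 UMIs in Tph1-high cells, 5287 in Sst-high, 6296 in Cck-high, 6499 in Gip-high, 7060 in Ghrl-high and 7471.5 in the rest. When each cell was thinned to 2000 UMIs, which left out 58 cells, Abcc8 was found in 28.6% of Sst-high, 18.5% of Gip-high, 10.8% of Cck-high, 9.93% of Ghrl-high, 1.15% of Tph1-high and 0.835% of the remaining cells. Before thinning the shares were 54.3%, 47.4%, 26.0%, 23.8%, 2.05% and 2.58%. Few cells gave more than a single Abcc8 UMI, and the most in any cell was 6. Doublets were not removed, and 494 cells met 2 of the hormone limits and 30 met 3.

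**Figure D2:**
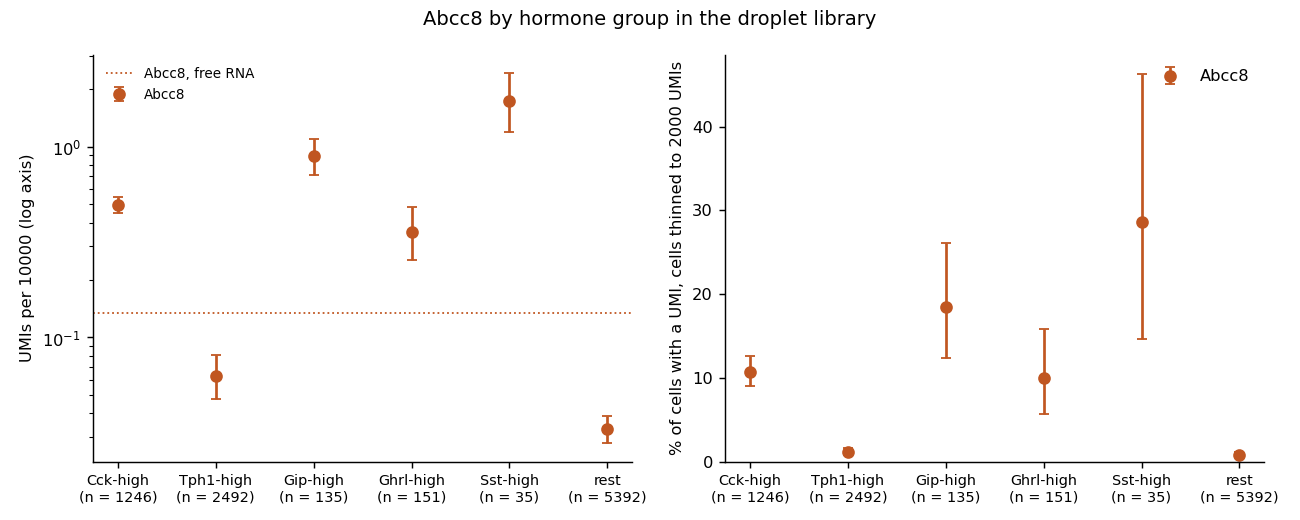
Abcc8 by hormone group of droplet cells: UMIs per 10000 with exact Poisson 95% intervals and the free RNA level as a dotted line, and the percent of cells with a UMI after thinning to 2000 UMIs with exact binomial 95% intervals. Abcc8 lies above free RNA in the Sst-, Gip-, Cck- and Ghrl-high cells and below it in the Tph1-high cells and the rest.

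Within the Cck-high cells, Abcc8 varied with the other hormones present, by limits set after seeing the data. Gcg, Pyy and Tph1 were split at 10 UMIs per 10000. The 461 cells with Gcg or Pyy at or over that limit and Tph1 under it, the N/L pattern, had 0.808 UMIs per 10000 (0.707 to 0.919). The 517 cells with Gcg, Pyy and Tph1 all under it, the I cell pattern, had 0.371 (0.311 to 0.440). The 268 cells with Tph1 at or over it had 0.240 (0.174 to 0.324). The interval of the N/L pattern cells overlapped neither of the others. Cck-high cells that also met the Gip limit (36 cells) had 1.18 (0.776 to 1.71), and those that also met the Ghrl limit (193 cells) had 0.544 (0.420 to 0.692). Among Tph1-high cells, the 357 with Tac1 at 10 or more per 10000 had 0.044 and the 676 with Sct at 500 or more had 0.056. In the remaining cells, those with the goblet mucin Muc2 at 10 or more per 10000 had 0.030 and those with Fabp1 at 100 or more had 0.029. Those with Dclk1 at 5 or more had 0.060 and those with Lyz1 at 100 or more had 0.017. The 399 remaining cells with a hormone at 50 or more per 10000 (Tph1 at 5 or more), but under its limit, had 0.168 (0.127 to 0.218). The other 4993, with lower levels of each hormone, had 0.022.

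**Figure D3:**
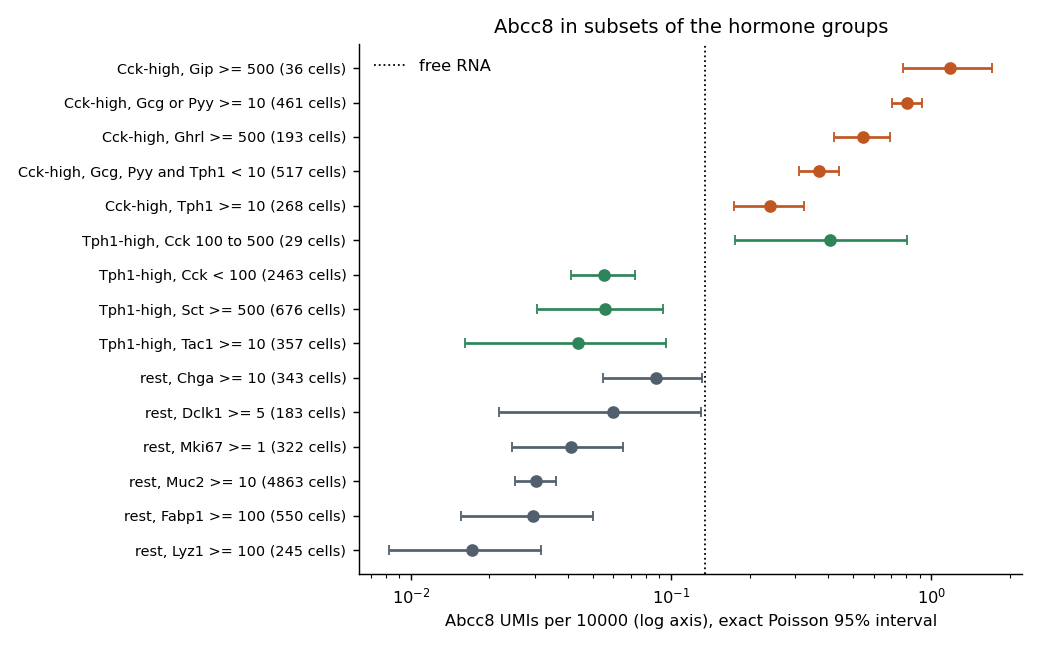
Abcc8 UMIs per 10000, with exact Poisson 95% intervals, in 15 subsets of the droplet cells split by a further hormone or marker gene. Cck-high cells with Gcg or Pyy at 10 or more per 10000 lie above those with Tph1 at 10 or more and those with Gcg, Pyy and Tph1 all under 10. Cck-high cells that also met the Gip limit lie higher still, at 1.18. The subsets of Tph1-high and remaining cells lie near or below 0.1, except Tph1-high cells with Cck at 100 to 500.

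Over classes of Cck, Abcc8 was at 0.037 UMIs per 10000 in cells with Cck under 10 per 10000, 0.260 at 25 to 50 and 0.412 at 50 to 100, and from there it lay between 0.325 and 0.559 up to the highest class, cells with Cck at 2000 or more, which had 0.482. On either side of the Cck limit of 500, Abcc8 was at 0.303 in the 40 cells just below it and at 0.407 in the 33 cells just above it. These classes were drawn from all cells, so those below 500 mix the other hormone groups. Gip-high cells, for example, held pooled Cck at 67.6 and Abcc8 at 0.889 UMIs per 10000. The part of each group in the pattern over Cck was not tested.

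**Figure D4:**
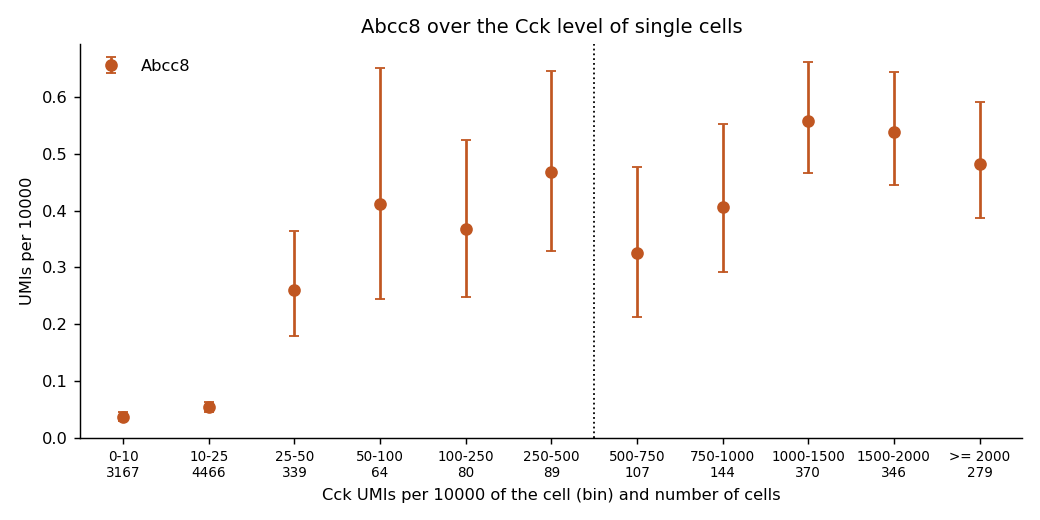
Abcc8 UMIs per 10000, with exact Poisson 95% intervals, over classes of Cck UMIs per 10000; the dotted line marks the limit of 500 for Cck-high cells. From the class of 50 to 100 Cck UMIs per 10000 upward, Abcc8 shows no further steady rise. The classes below 500 mix cells of the other hormone groups.

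Over the 6 cell groups, the genes whose droplet levels were most like Abcc8, among 9766 genes, were Igsf8 (Pearson r = 0.991), Cdc14a (0.988), Per3 (0.987), Snx5 (0.987) and Qsox2 (0.981). This is a description over groups that differ in depth and in number of cells.

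RNA of the pore gene was almost unseen in droplets. Kcnj11 gave 7 UMIs in 7 cells, of which 2 were Cck-high, 2 Ghrl-high, 1 Gip-high, 1 Tph1-high and 1 among the rest, and it gave none in free RNA. A single cell, Ghrl-high, held both Abcc8 and Kcnj11. Abcc9 gave 1 UMI, in the remaining cells, and 0 of 1246 Cck-high cells allows a share of cells with a UMI of up to 0.241%, which does not limit the share that express the gene. Kcnj8 gave 2 UMIs, both in the remaining cells. The Cck-high cells, with 2 Kcnj11 UMIs, gave 407 UMIs of Abcc8. In the CCK+ bulk libraries the ratio of Abcc8 to Kcnj11 per kilobase ran from 0.851 to 4.41. The cause of this difference between the assays was not tested. With so few UMIs Kcnj11 could not be assigned to a cell type, and the bulk libraries alone give its RNA level.

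Of 10 genes of hexose phosphorylation and glucose release, 3 were higher and 4 lower in CCK+ cells, with a median log2 difference of 0.20 against 0.09 for all genes. The background for this and each list count below is 19.6% of all genes called higher and 14.1% called lower. Adpgk, a sugar kinase that uses ADP, rose by 2.29 (adjusted p = 2.1e-05) and hexokinase 2 (Hk2) by 2.24 (adjusted p = 1.3e-05), and the phosphatase gene G6pc3 by 1.06 (adjusted p = 0.000144), whereas G6pc, which releases free glucose, fell by 1.80 (adjusted p = 0.000254). In droplets Hk2 was at 0.884 UMIs per 10000 in Cck-high cells and 0.995 in the rest, near its free RNA level of 1.04.

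Of 11 genes of glucose entry, 2 were higher and 5 lower in CCK+ cells, with a median of -0.61. The facilitative transporters Slc2a3 and Slc2a1 were higher, by 1.62 (adjusted p = 0.000149) and 1.47 (adjusted p = 7.5e-06). The transporter GLUT2 (Slc2a2) fell by 2.06 (adjusted p = 1.9e-06), from a mean of 15239 in CCK- to 3891 in CCK+ libraries, and the sodium-glucose transporter SGLT1 (Slc5a1) fell by 1.503 (adjusted p = 1.0e-05), from 43266 to 16332. Both are abundant in enterocytes, whose markers were also lower in CCK+ libraries, in 7 of 9 cases, and the part of enterocyte RNA in these levels was not tested. In droplets Slc5a1 was at 1.19 UMIs per 10000 in Gip-high, 0.453 in Cck-high and 1.43 in the remaining cells, all below its free RNA level of 1.64. Slc2a2 was at 0.043 in Cck-high and 0.245 in the remaining cells, with 0.125 in free RNA. Slc5a4b, another member of that family, was at 0.647 in Tph1-high and 0.051 in Cck-high cells. Refeeding raised Slc2a1 in CCK+ cells by 1.01 (adjusted p = 0.0326) and lowered Slc5a1, at -1.02 (adjusted p = 0.0391), and its relative Slc5a4a, at -1.59 (adjusted p = 0.0081). The other list genes called there were Abcc2, at -1.08 (adjusted p = 0.0173), and the scaffold gene Ank3, at -1.10 (adjusted p = 0.0273). In CCK- cells the list genes called were Slc5a4a, at -1.49 (adjusted p = 0.0181), and Ank3, at -1.41 (adjusted p = 0.0106), and none of the list genes passed the test of the difference between the cell populations. Slc5a4a, Abcc2 and Ank3 are named after their values were seen. When only the CCK+ libraries were fitted, limma called no gene between refed and fasted mice (3190 at an unadjusted p under 0.05), so none of the CCK+ refeeding calls given here held in that fit. With equal library sums, 3 genes of glucose entry were lower in CCK+ than in CCK- cells in place of 5, and 2 of hexose phosphorylation and glucose release in place of 4.

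Voltage-gated calcium channel subunits, which carry the calcium that follows closure of the potassium channel, were higher in CCK+ cells in 10 of 16 cases and lower in 1, with a median of 2.29. The pores Cacna1h, Cacna1a and Cacna1c rose by 5.98 (adjusted p = 3.2e-08), 5.48 (adjusted p = 3.2e-08) and 4.96 (adjusted p = 3.0e-06), and the auxiliary subunit Cacna2d1 by 5.47 (adjusted p = 3.3e-09). In droplets Cacna2d1 and Cacna1a were higher in every hormone group than in the rest, with 3.23 and 1.38 UMIs per 10000 in Tph1-high cells and 1.83 and 1.35 in Cck-high cells, against 0.107 and 0.104 in the rest.

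Other inward rectifiers were higher in 4 of 11 cases and lower in none, with a median of 0.85. The G protein-gated pores Kcnj3, Kcnj5 and Kcnj6 rose by 6.04 (adjusted p = 1.3e-07), 5.76 (adjusted p = 2.7e-07) and 4.89 (adjusted p = 2.2e-06), and the strong rectifier Kcnj2 by 0.86 (adjusted p = 0.000393). In droplets Kcnj3 was at 0.254 in Cck-high and 0.360 in Gip-high cells and at 0.018 in Ghrl-high cells, and Kcnj2 was at 0.159 in Tph1-high cells. Other ABCC proteins were higher in 4 of 9 cases and lower in 2, with a median of -0.08. The exporters Abcc4, Abcc1 and Abcc5 rose by 3.73 (adjusted p = 4.3e-06), 2.23 (adjusted p = 0.000154) and 1.44 (adjusted p = 0.000108), and Abcc12, listed at 0 in every CCK- library, was called with values of 0 to 31.3 in CCK+ libraries. In droplets Abcc12 was at 0.205 in Ghrl-high cells and 0.0255 in Cck-high cells, and Abcc3 lay between 0.205 and 0.609 in all hormone groups, with 0.563 in free RNA.

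Partners of the channel and enzymes of local ATP supply were higher in 3 of 17 cases, near the 19.6% of all genes, and lower in 5, with a median of -0.17. Rapgef4, the cAMP sensor Epac2, which is known to bind SUR1, rose by 2.60 (adjusted p = 1.3e-06). The phosphofructokinases divided, with Pfkm and Pfkl higher by 2.04 (adjusted p = 7.2e-05) and 1.17 (adjusted p = 0.000152) and Pfkp lower, at -1.24 (adjusted p = 2.4e-06). In droplets Rapgef4 was at 0.267 in Ghrl-high, 0.183 in Cck-high and 0.097 in Tph1-high cells, and the pyruvate kinase gene Pkm, the most abundant of this list there, was at 8.77 in Tph1-high, 6.20 in Cck-high and 2.51 in the remaining cells. Of the sweet taste genes, which offer another route of sugar detection, 2 of 6 were higher and 1 lower, with a median of -0.42. Itpr3, a calcium release channel, rose by 1.96 (adjusted p = 0.000122) and Plcb2 by 1.09 (adjusted p = 0.0293), while the taste G protein Gnat3 fell by 1.44 (adjusted p = 0.0387) at means of 1.06 and 4.10. The Gnat3 call was lost with equal library sums, with a pseudocount of 10 and without CCK+ fasted A and CCK+ refed E, and the Plcb2 call without those libraries. In droplets Itpr3 was at 2.46 in Tph1-high and 0.690 in Cck-high cells, with 1.02 in free RNA.

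**Figure D5:**
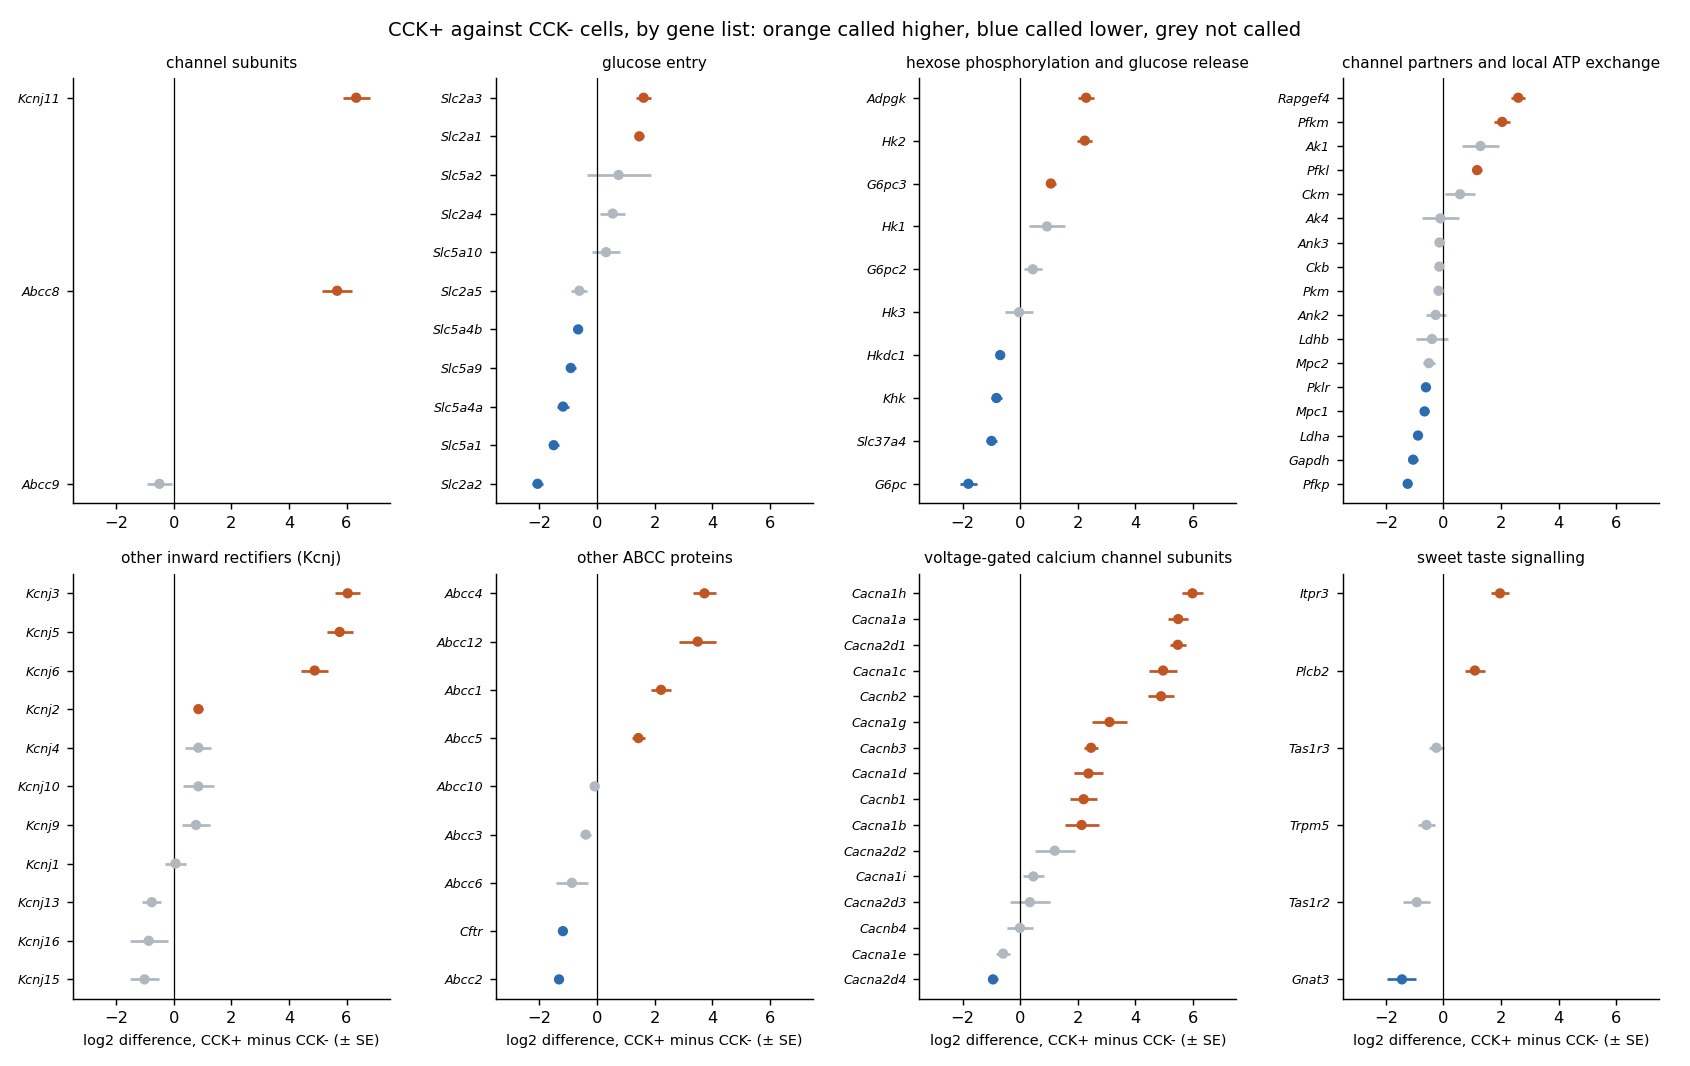
Log2 differences between CCK+ and CCK- libraries (limma, with standard errors) for the channel genes and 7 lists of genes around them. Abcc8 and Kcnj11 lie near 6 together with Kcnj3, Kcnj5 and several calcium channel subunits, whereas Abcc9, Slc2a2 and Slc5a1 lie below 0.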

How the data were processed

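Bulk reads were trimmed with Trim Galore 0.6.7 and quantified with Salmon 1.6.0 against the GRCm39 transcriptome by the authors, and the deposited signal is gene counts divided by DESeq2 normalization factors. Droplet values are deposited UMI counts from Cell Ranger 2.0.1 (mm10), for all barcodes. Tools and versions are from the submitters' processing notes and the study's methods.

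Because deposited bulk values were normalised and not whole, log2(value + 1) was fitted with limma 3.58.1 in R 4.3.3 (group means, mean-variance trend, Benjamini-Hochberg adjustment over 22042 genes, threshold 0.05) and tested on simulated data. Each mouse gave a CCK+ and a CCK- library. Deviations of libraries of the same mouse correlated at 0.0773 to 0.124 (6 pairs), and those of other pairs at -0.0826 to -0.0184 (12 pairs). Droplet cells were filtered as stated in the report, and they outnumber those the study kept. Counting intervals are exact, at 95%. Named genes were the members, up to 4 called genes of each list by absolute log2 difference, the leading droplet genes, and Kcnj8, Slc2a2 and Slc5a1; 3 genes of that rule or of the lists are not reported here. Members and lists were chosen with earlier results of these data known. Sequences and coordinates are GENCODE vM21 (GRCm38) and were not converted. The bulk protocol's strand is not given in the sources used here, and antisense genes are annotated within Abcc8 and Abcc9.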

Additional observations from a re-analysis of the deposited data

How the results depend on the processing

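The higher level of Abcc8 and Kcnj11 in CCK+ cells kept its direction and its call in all 21 alternatives, with log2 differences of 4.23 to 6.02 (highest adjusted p = 0.0253, limma) and 3.28 to 7.25 (highest adjusted p = 0.0176). With 1 library left out at a time they ran from 5.28 to 6.00 and from 6.08 to 6.75. Abcc9 stayed uncalled, at -0.93 to -0.06. With the mouse as a replicate block the adjusted p was 1.1e-05 for both genes, and the block changed no call of a member. Among the lists it added a lower call each to glucose entry (Slc2a5), sweet taste (Trpm5), other ABCC proteins (Abcc3) and channel partners (Mpc2) and a higher call to the calcium channels (Cacna2d2), and it removed none. With fasted libraries only, the genes called fell to 2169, with fewer samples in the fit. Rescaling libraries to equal sums moved the median of all genes to 0.346 and the calls to 6511 higher and 1232 lower.

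The refeeding differences, none of them called, changed sign in CCK+ cells with equal library sums (Abcc8 0.15, Kcnj11 0.082) and with CCK+ fasted A and CCK+ refed E left out (0.57 and 0.0207, chosen after seeing the data). Leaving out 1 library gave -0.38 to 0.35 for Abcc8, -0.97 to 0.38 for Kcnj11 and -0.0371 to 0.70 for Abcc9 in CCK+ cells, and -1.24 to 0.29, -0.35 to 0 and -0.82 to 0.0368 in CCK- cells. The interaction ran from -0.36 to 1.17 for Abcc8 and from -0.74 to 0.61 for Kcnj11, which was -0.14 with a pseudocount of 10. Genes called in refed CCK+ cells ranged from 0 to 876. The 0 came from limma on the compared groups alone, with 3190 genes at an unadjusted p under 0.05.

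In droplets, Abcc8 was at 0.0459 UMIs per 10000 in Tph1-high cells without cells over several limits, at 1.13 in Gip-high and 0.0427 in remaining cells with limits doubled, and at 0.0261 in remaining cells with limits halved. Thinned to 2000 UMIs it was at 0.566 in Cck-high, 0.530 in Ghrl-high and 0.0417 in remaining cells. The cause of these shifts was not tested. Low counts limit Kcnj11 and Abcc9 in droplets and 3 mice per state limit the refeeding comparisons.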
